A study of Homo sapiens with 6 samples.

Results

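The 44 genes described here encode the enzymes and transporters that carry glucose carbon through glycolysis, the pentose phosphate pathway, pyruvate oxidation and the tricarboxylic acid (TCA) cycle. They were taken as a list of gene names, chosen with earlier results of these data known. A member was any gene of that list with a probe set of its own on the array, which gave 41 genes of the 19775 measured. Those 41 had 96 probe sets that named a member alone, and 40 of the genes passed the filter on low values. The lactate transporters SLC16A1 and SLC16A3 and the fumarate hydratase gene FH were not analysed here. The glucose transporter SLC2A3 was near background on the brightest of its 3 own probe sets, at 2.23 on the log2 scale on all 6 arrays. It was therefore not tested, and 2 further probe sets that name it with another gene were not read.

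Affymetrix arrays measured expression in HT-29, an established cell line from a colon adenocarcinoma, kept in McCoy's medium with glucose and fetal bovine serum. There were 3 variants (wild type, BR100, BR200) and 6 arrays, a pair for each variant: replicate 1 used 100 ng RNA and the Express labelling kit, replicate 2 used 3 ug and the One-Cycle kit. For resistance, bortezomib, an inhibitor of the proteasome, was raised stepwise over 7 months (20 to 300 nM), followed by cloning through limiting dilution for 4 months in 100 or 300 nM drug. The labels carry that text on all 6 samples, wild type included, and state neither the cloning dose of BR200, nor the number of clones behind a variant, nor whether drug was present at harvest. Separate cultures are not stated either, so p-values measure only the spread between these arrays, which may be technical.

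Glycolysis splits glucose into pyruvate in the cytosol, and lactate dehydrogenase converts pyruvate to lactate, which leaves through monocarboxylate transporters. The pentose phosphate pathway branches off at glucose-6-phosphate and yields NADPH and ribose for nucleotides. Pyruvate enters mitochondria to become acetyl-CoA through the pyruvate dehydrogenase complex, which its kinases switch off, and the TCA cycle oxidises that carbon. Colon cancer lines are known for high glucose uptake and lactate release.

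Of 8 markers of colon epithelium 7 were above background in every variant, with EPCAM at 14.63 to 14.97, whereas the intestinal factor CDX2 stayed at the floor, 2.23, throughout. VIL1 was at 8.54 and 8.20 in wild type, 6.56 and 6.48 in BR100, and 6.68 and 6.57 in BR200. CEACAM5 was at 8.75 and 8.37, then 6.46 and 6.32, then 7.06 and 6.23. EPCAM, CDH1 and KRT20 were lower by less in both resistant variants, and KRT8 and KRT18 stayed at 14.29 to 14.62 and 15.30 to 15.43. The summed log2 level of the 8 epithelial markers was 92.4 to 93.0 in wild type, 87.0 to 87.1 in BR100 and 87.4 to 88.2 in BR200. Of 4 endothelial markers 0 reached log2 4 on any array, and of 6 fibroblast markers 1 did (COL1A1), with summed levels of 16.7 to 17.0 over all arrays. Of 4 blood markers CD14 and LYZ did, and the sum was 24.4 in wild type, 24.7 to 25.0 in BR100 and 25.6 to 25.8 in BR200, while PTPRC, which defines leukocytes, was at the floor. The 3' minus 5' gap of the ACTB control probe sets, which reflects RNA quality and labelling, was 2.99 to 4.22 in wild type, 1.86 to 3.03 in BR100 and 1.76 to 3.24 in BR200. It moved with every comparison against wild type below, and its part in them was not tested.

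Most of the pathway was higher in both resistant variants. The glucose transporter SLC2A1, the pyruvate dehydrogenase kinase PDK1 and the cytosolic isocitrate dehydrogenase IDH1 were lower in both. Of the other tested members, 6 passed as higher in BR100 only, 1 in BR200 only, and 3 passed in neither. In BR100, 33 of the 40 members rose against wild type, 3 fell and 4 did not pass, where a change was called at a limma adjusted p under 0.05 over all genes tested. Over those 10370 genes tested, 36.7% were called higher, 31.8% lower and 68.5% in either direction, beside 90% of members called. The median log2 change was 0.59 over members and 0.04 over all genes. In BR200, 28 members rose, 3 fell and 9 did not pass, against 35.4% higher, 31.2% lower and 66.5% called of all genes. The medians there were 0.45 and 0.04. Because the list was chosen with earlier results of these data known, these contrasts with all genes describe it and do not test it.

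The members were bright genes, with a median level of 10.98 against 8.71 for all genes tested. Among the 3160 genes with a mean level of at least 10, 41.6% were called higher and 32.3% lower in BR100, and 38.7% and 32.8% in BR200, with median changes of 0.07 and 0.06. At least 2-fold changes were made by 12 members in BR100 and 11 in BR200, beside 25.7% and 23.7% of all genes. In both variants alike, 27 members were called higher and 3 lower, where 31.1% of all genes were called higher in both and 26.8% lower in both. The comparisons against wild type share its 2 arrays, so the values of each are given side by side and their likeness is not a separate result. Of the 3 lower members SLC2A1 kept its calls under every alternative tested. PDK1 lost both with the mean of its probe sets (−0.22 in BR100, adjusted p = 0.145, and −0.11 in BR200, adjusted p = 0.424) and its BR200 call with no filter on low values (adjusted p = 0.0517). IDH1 lost its BR200 call with no filter (adjusted p = 0.0650), without BR200 replicate 1 (−0.39, adjusted p = 0.0508) and without wild type replicate 1 (−0.45, adjusted p = 0.0567). Without the kit as a block, 21 members were called in BR100 and 18 in BR200.

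**Figure D1:**
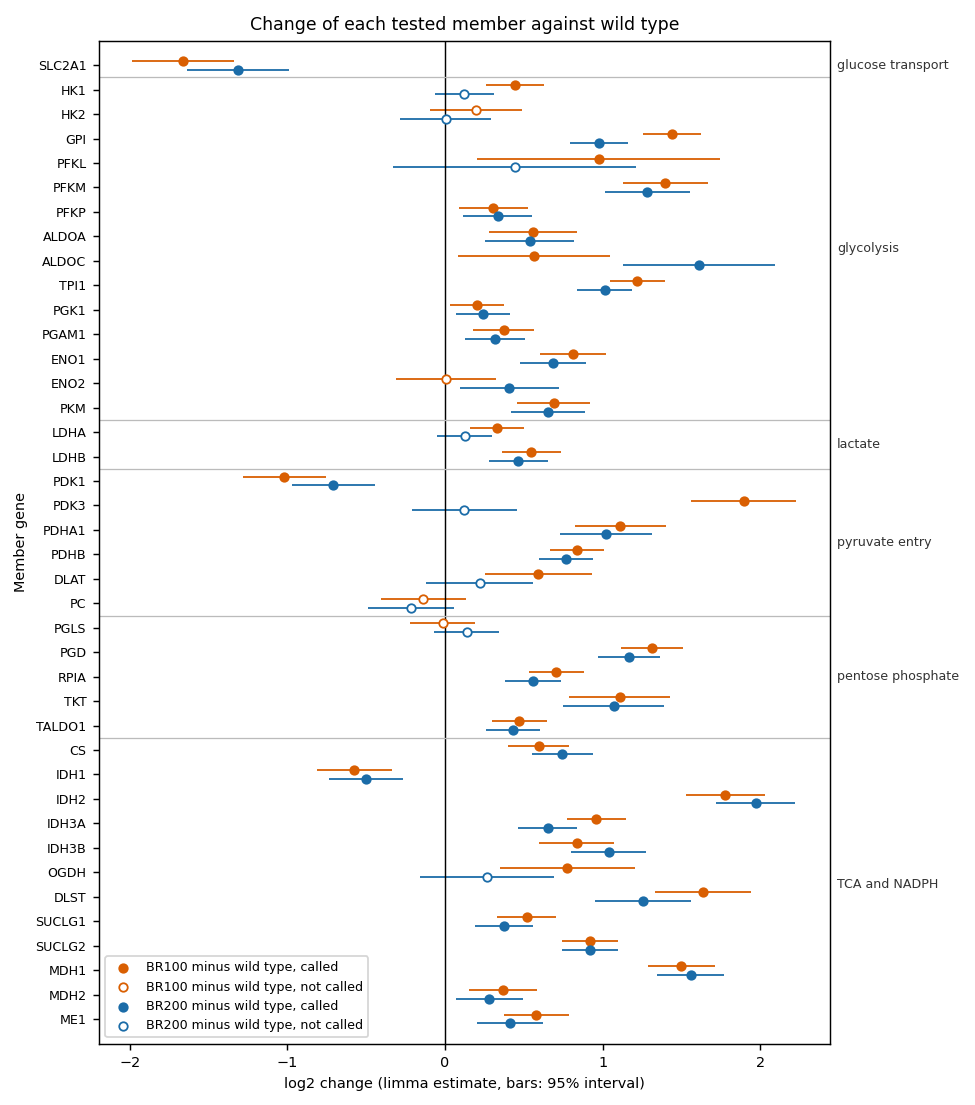
Log2 change of the 40 tested members against wild type, in pathway order, for BR100 (orange) and BR200 (blue). Points are limma estimates, filled where called, and bars are 95% intervals. SLC2A1, PDK1 and IDH1 lie left of 0 in both variants, and PDK3 is far right in BR100 alone at 1.89 against 0.12 in BR200.

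At the entry of glucose, SLC2A1 encodes GLUT1, the basal glucose transporter. Its log2 level was 10.85 and 11.16 on the Express and One-Cycle arrays of wild type, 9.25 and 9.44 in BR100, and 9.74 and 9.64 in BR200. Every resistant array lay below both wild type arrays. The log2 change was −1.66 in BR100 (SE 0.120, adjusted p = 0.000574), which is 3.16-fold lower, and −1.31 in BR200 (SE 0.120, adjusted p = 0.00117), which is 2.48-fold lower. A further SLC2A1 probe set, near background at a mean of 3.23, stood at −1.92 and −1.75.

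PDK1 phosphorylates and switches off pyruvate dehydrogenase. Levels were 9.66 and 9.73 in wild type, 8.72 and 8.63 in BR100, and 9.10 and 8.87 in BR200, with no overlap between wild type and either variant. The log2 changes were −1.02 (SE 0.0975, adjusted p = 0.0012) and −0.71 (SE 0.0975, adjusted p = 0.00373). A dimmer PDK1 probe set, at a mean of 5.07, did not follow, with 0.39 and 0.40 and neither value called.

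SLC2A1 and PDK1 are textbook targets of the hypoxia-inducible factor, as are ALDOA, PGK1, ENO1 and LDHA, which were called higher in BR100 (0.56, 0.20, 0.81 and 0.33). In BR200 these were at 0.54, 0.24, 0.69 and 0.12, and LDHA was not called. They are named as examples, and no full list of its targets was examined, so they do not show how its targets moved as a group. The core of the hypoxia factor's DNA motif is ACGTG or GCGTG. Promoters of the pair that fell, from 250 bases before to 50 bases after the annotated start (RefSeq, GRCh38.p14), are shown with each match to either core on either strand in capitals, beside that of MDH1, which was higher in both variants. For MDH1 the first of its annotated windows is given, and for PDK1 the one that holds a match.
SLC2A1, chr1:42958819-42959118, minus strand: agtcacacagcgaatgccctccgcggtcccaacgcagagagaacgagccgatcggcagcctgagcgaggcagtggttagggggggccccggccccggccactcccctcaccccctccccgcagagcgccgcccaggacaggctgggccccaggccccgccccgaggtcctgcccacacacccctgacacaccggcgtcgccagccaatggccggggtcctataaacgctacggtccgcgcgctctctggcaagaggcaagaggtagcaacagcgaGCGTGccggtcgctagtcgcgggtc
PDK1, chr2:172555840-172556139, plus strand: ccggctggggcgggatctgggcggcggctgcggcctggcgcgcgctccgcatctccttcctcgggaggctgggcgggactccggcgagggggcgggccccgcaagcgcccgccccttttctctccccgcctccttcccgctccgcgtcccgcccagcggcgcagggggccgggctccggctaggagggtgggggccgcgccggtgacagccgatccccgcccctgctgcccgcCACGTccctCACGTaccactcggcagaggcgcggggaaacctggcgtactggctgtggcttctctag
MDH1, chr2:63588713-63589012, plus strand: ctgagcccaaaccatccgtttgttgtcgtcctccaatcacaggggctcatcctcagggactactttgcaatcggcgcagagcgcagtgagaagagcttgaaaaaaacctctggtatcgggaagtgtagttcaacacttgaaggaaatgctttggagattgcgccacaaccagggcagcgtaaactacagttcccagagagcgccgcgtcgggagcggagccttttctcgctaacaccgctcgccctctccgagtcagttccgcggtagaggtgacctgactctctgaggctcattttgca
The PDK1 window held 2 matches, which begin 17 and 8 bases before the start, both as CACGT on the printed strand. The SLC2A1 window held 1, a GCGTG that begins at base 26 from the start. The MDH1 window shown held 0, which says only that these letters are not in it. The IDH2 window, not printed, held 1 match, 15 bases before the start, and IDH2 was also higher in both variants. The PDK1 window not printed held 0. The printed windows are therefore no comparison of members that rose with members that fell. By promoter window, 60.0% of 70 windows of 41 listed members held ACGTG or GCGTG. Those 41 are not the 41 with probe sets, because they include SLC16A3 and FH and lack SLC2A3 and OGDH. The share was 61.2% of 12521 windows of tested genes and 48.4% of all 35116 windows, so the members' share was near that of tested genes. In windows of members, of tested genes and of all genes, ACGTG was in 31.4%, 25.9% and 21.4%, and GCGTG in 44.3%, 49.0% and 36.5%. The longer E-box CACGTG, which contains ACGTG, was in 7.14%, 9.66% and 7.26%. By gene, either core was found for 19 of the 27 members that rose in both variants, for 3 of the 3 that fell, and for 70.9% of 8620 tested genes.

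Glycolysis proper had 14 tested members, of which 12 rose in BR100 and 11 in BR200, and none fell. Over all genes 36.7% were called higher in BR100 and 35.4% in BR200. Hexokinase traps glucose as glucose-6-phosphate. HK1 rose by 0.44 in BR100 (adjusted p = 0.00518) and was at 0.12 in BR200 (95% interval −0.06 to 0.31). The brightest HK2 probe set did not pass in either, at 0.20 and 0.00 (intervals −0.09 to 0.49 and −0.29 to 0.29). Dimmer HK2 probe sets were called higher in BR100, as given with the other probe sets below. The next enzyme, the isomerase GPI, was at 10.86 and 11.82 in wild type, 12.30 and 13.26 in BR100, and 11.88 and 12.75 in BR200. Within each kit wild type was lowest and BR100 highest, although the kits differed so much that wild type on One-Cycle nearly reached BR200 on Express. GPI rose 2.71-fold in BR100 (log2 1.44, SE 0.0679, adjusted p = 0.000229) and 1.97-fold in BR200 (log2 0.98, SE 0.0679, adjusted p = 0.000583).

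Phosphofructokinase, the committed step, has 3 isoforms, and they moved by unequal amounts. PFKM, the muscle type, was at 8.97 and 8.79 in wild type, 10.20 and 10.35 in BR100, and 10.18 and 10.14 in BR200. All resistant arrays were above both wild type arrays. It rose by 1.40 (interval 1.13 to 1.67) and 1.28 (1.01 to 1.55). PFKP, the platelet type, rose by 0.31 (0.09 to 0.52) and 0.33 (0.12 to 0.55), intervals that lie wholly below those of PFKM, though the difference between isoforms was not tested. PFKL, the liver type, had levels of 5.79 and 6.59 in wild type, 6.51 and 7.82 in BR100, and 6.56 and 6.71 in BR200. The groups overlapped across kits, although within each kit wild type was lowest. PFKL was called in BR100 at 0.98 (SE 0.286, adjusted p = 0.0364) and not in BR200 at 0.44 (adjusted p = 0.234).

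Aldolase splits the hexose bisphosphate. ALDOA rose by 0.56 and 0.54 in BR100 and BR200. ALDOC, the isoform best known from brain, was at 5.59 and 5.15 in wild type, 6.01 and 5.85 in BR100, and 6.85 and 7.11 in BR200. Each BR200 array was above every other array. The change was 0.57 in BR100 (interval 0.08 to 1.05, adjusted p = 0.0452) and 1.61 in BR200 (1.13 to 2.09, adjusted p = 0.00201). Further down, TPI1, which interconverts the triose phosphates, rose by 1.22 and 1.01. PGK1 and PGAM1, the next kinase and mutase, rose by 0.20 and 0.37 in BR100 and by 0.24 and 0.32 in BR200. PGK1 lost its calls when any array was left out, and a dim probe set of it, at a mean of 3.74, was called lower in BR100 at −1.03.

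Enolase and pyruvate kinase close the pathway. ENO1 rose by 0.81 and 0.69. ENO2, the neuronal isoform, was at 6.39 and 6.61 in wild type, 6.55 and 6.46 in BR100, and 6.99 and 6.83 in BR200. Only the BR200 arrays lay above wild type. It was called in BR200 only (0.41, adjusted p = 0.0353) and stood at 0.01 in BR100, but BR200 and BR100 did not pass against each other (0.40, adjusted p = 0.106). PKM, pyruvate kinase, rose by 0.69 and 0.65 (SE 0.0861, adjusted p = 0.00264 and 0.0033), but a dimmer PKM probe set, at a mean of 6.22, was called lower in BR100 at −0.32 and stood at −0.24 in BR200. Of the lactate dehydrogenase subunits, LDHB rose by 0.55 and 0.46, and LDHA by 0.33 in BR100, with 0.12 in BR200 (interval −0.05 to 0.30).

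**Figure D2:**
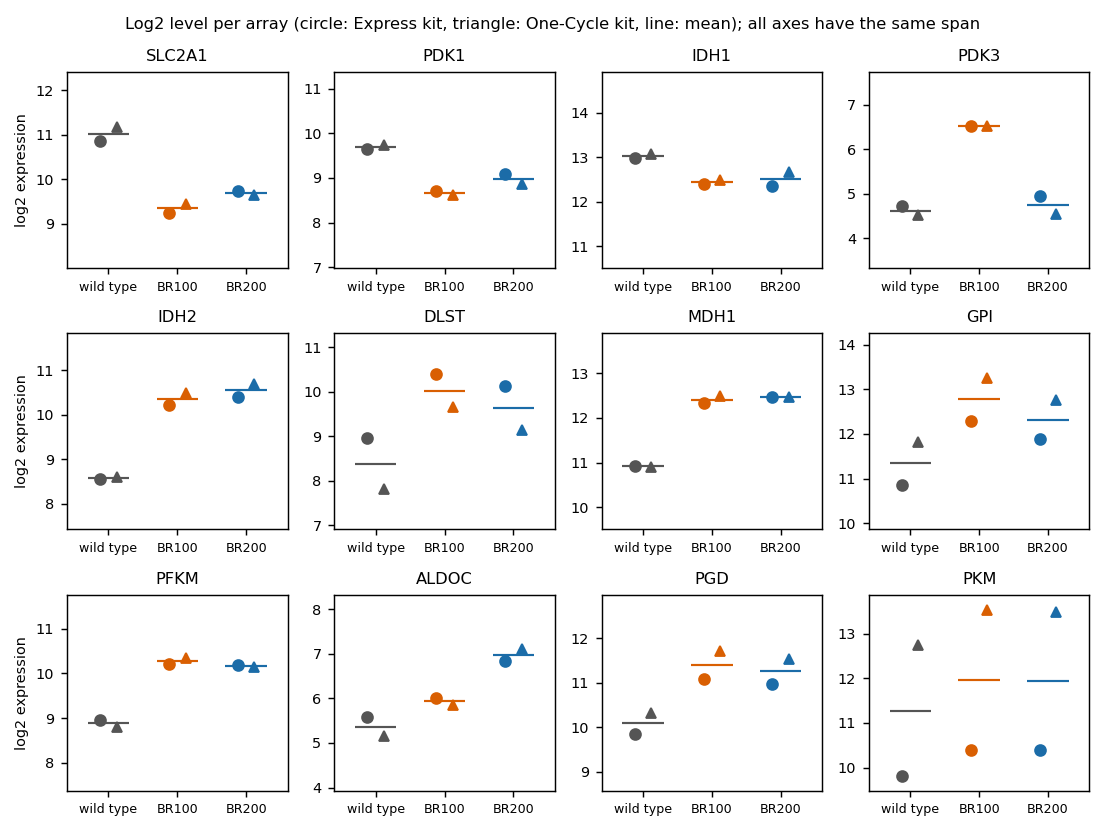
Log2 level of 12 members on each array, by variant, with the Express kit as circles, the One-Cycle kit as triangles and lines at group means. SLC2A1, PDK1 and IDH1 are lower in the resistant variants, PDK3 is high in BR100 only (6.51 and 6.53), ALDOC is highest in BR200, and PKM differs far more between kits than between variants.

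Of the 6 tested genes of pyruvate entry into mitochondria, 4 were higher and 1 lower in BR100, and 2 were higher and 1 lower in BR200. That is 83.3% and 50% called, beside 68.5% and 66.5% of all genes, so the BR200 share was not above that of all genes. PDHA1 and PDHB, the subunits of the first enzyme of the complex, rose by 1.11 and 0.84 in BR100 and by 1.02 and 0.77 in BR200. DLAT, the acetyltransferase, rose by 0.59 in BR100 (adjusted p = 0.0136) and was at 0.22 in BR200 (interval −0.12 to 0.56), where its other 2 probe sets were called at 0.92 and 0.42. PDK3, a kinase of the same family as PDK1, was at 4.72 and 4.54 in wild type, 6.51 and 6.53 in BR100, and 4.96 and 4.54 in BR200. BR100 stood apart from all other arrays, and wild type and BR200 overlapped. The rise in BR100 was 3.72-fold (log2 1.89, SE 0.124, adjusted p = 0.00045), while BR200 was at 0.12 (interval −0.21 to 0.46). Pyruvate carboxylase, PC, which feeds the cycle with oxaloacetate, was at −0.14 and −0.22 and did not pass.

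In the pentose phosphate pathway 4 of 5 tested members rose in each variant, where 36.7% and 35.4% of all genes were called higher. PGD, the oxidative enzyme that releases NADPH and ribulose-5-phosphate, was at 9.85 and 10.32 in wild type, 11.09 and 11.70 in BR100, and 10.97 and 11.54 in BR200. Both variants lay above wild type without overlap, by 1.31 (SE 0.0726, adjusted p = 0.000313) and 1.17 (SE 0.0726, adjusted p = 0.000448). TKT, the transketolase of the reversible branch, rose by 1.11 and 1.07, the isomerase RPIA by 0.71 and 0.56, and transaldolase TALDO1 by 0.47 and 0.43. PGLS, the lactonase before PGD, had levels of 9.55 and 9.50 in wild type, 9.60 and 9.42 in BR100, and 9.77 and 9.56 in BR200. Its changes of −0.01 and 0.14 did not pass (intervals −0.22 to 0.19 and −0.07 to 0.34).

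The TCA group had 12 tested members, with 11 higher and 1 lower in BR100 and 10 higher and 1 lower in BR200. That is 100% and 91.7% called, beside 68.5% and 66.5% of all genes. The 2 NADP-dependent isocitrate dehydrogenases moved in opposite directions. IDH2, the mitochondrial enzyme, was at 8.56 and 8.59 in wild type, 10.22 and 10.48 in BR100, and 10.40 and 10.69 in BR200. Every resistant array lay far above both wild type arrays. It rose 3.43-fold in BR100 (log2 1.78, SE 0.0932, adjusted p = 0.00028) and 3.91-fold in BR200 (log2 1.97, SE 0.0932, adjusted p = 0.000257). IDH1, its cytosolic counterpart, was at 12.98 and 13.07 in wild type, 12.40 and 12.49 in BR100, and 12.36 and 12.67 in BR200. Every resistant array was lower, by log2 changes of −0.58 (interval −0.81 to −0.34) and −0.50 (−0.74 to −0.27), and its further probe sets were at −0.59 and −0.95 in BR100.

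The other dehydrogenases of the cycle were mostly higher. CS, citrate synthase at the entry, rose by 0.59 and 0.74. IDH3A and IDH3B, subunits of the NAD-dependent isocitrate dehydrogenase, rose by 0.96 and 0.83 in BR100 and by 0.65 and 1.04 in BR200. Another IDH3A probe set, at a mean of 8.87, was called lower in BR200 at −0.64 and stood at −0.10 in BR100. DLST, the succinyltransferase of the 2-oxoglutarate dehydrogenase complex, was at 8.95 and 7.82 in wild type, 10.40 and 9.65 in BR100, and 10.13 and 9.15 in BR200. The resistant variants were above wild type on each kit, by 1.64 (SE 0.113, adjusted p = 0.000513) and 1.25 (SE 0.113, adjusted p = 0.00112). OGDH, the first enzyme of that complex, was at 6.72 and 7.35 in wild type, 7.24 and 8.38 in BR100, and 6.72 and 7.88 in BR200. It was called in BR100 at 0.78 (adjusted p = 0.012) and not in BR200 at 0.26 (adjusted p = 0.205). The groups overlapped across kits, although within each kit BR100 was highest.

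Succinyl-CoA ligase subunits SUCLG1 and SUCLG2 rose by 0.52 and 0.92 in BR100 and by 0.37 and 0.92 in BR200. MDH1, the cytosolic malate dehydrogenase of the malate-aspartate shuttle, was at 10.92 and 10.91 in wild type, 12.33 and 12.49 in BR100, and 12.48 and 12.47 in BR200. The resistant arrays were all above wild type, 2.82-fold in BR100 (log2 1.50, SE 0.0789, adjusted p = 0.000283) and 2.95-fold in BR200 (log2 1.56, SE 0.0789, adjusted p = 0.00029). MDH2, the mitochondrial form, rose by 0.37 and 0.28, but its other probe set was called lower, at −0.61 and −0.87. ME1, the cytosolic malic enzyme that yields NADPH, rose by 0.58 and 0.41.

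The direct comparison of BR200 with BR100 asked where the resistant variants differed. Of the 40 members 3 were called, 1 higher and 2 lower, beside 6.39% and 4.23% of all genes (10.6% in either direction). BR200 minus BR100, PDK3 stood at −1.77 (SE 0.124, adjusted p = 0.00827), GPI at −0.46 (SE 0.0679, adjusted p = 0.0322) and ALDOC at 1.04 (SE 0.179, adjusted p = 0.0416). PFKL at −0.53, OGDH at −0.51 and ENO2 at 0.40 completed the 6 largest differences and did not pass (adjusted p = 0.288, 0.118 and 0.106), so the calls of PFKL and OGDH in BR100 alone do not show a difference between the variants. The same holds for HK1, LDHA and DLAT, at −0.32, −0.21 and −0.37. Leaving out any array, wild type included, ended all 3 calls with limma (adjusted p of PDK3 0.0656 to 0.0763), with 4 to 14 members at an unadjusted p under 0.05. Without the kit block 1 call was left, that of PDK3.

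The labelling kits gave different levels for some members. Express minus One-Cycle, 13 members were called, 4 higher and 9 lower, beside 22.4% and 11.7% of all genes (34% in either direction). Leaving out an array left 3 to 9 of these calls, with 3 when either BR200 array and 5 when either BR100 array was missing, and without the variant term 1 was left. The ACTB gap was larger with Express than with One-Cycle in every variant (3.03 to 4.22 against 1.76 to 2.99), and its part in the kit differences was not tested. PKM, pyruvate kinase, differed by −3.06 (SE 0.0703), with Express levels of 9.82, 10.39 and 10.38 and One-Cycle levels of 12.74, 13.54 and 13.48 in wild type, BR100 and BR200. Within a kit its change was 0.57 (Express) and 0.80 (One-Cycle) in BR100. CS, OGDH and GPI differed by −1.12, −0.98 and −0.93, and DLST and SUCLG1 by 0.95 and 0.62. For the median member the change from wild type differed between kits by 0.16 in BR100 and 0.14 in BR200, and for 38 and 37 of 40 members by under 0.5. PFKL had the largest kit disagreement between the variants, −1.11 on One-Cycle arrays and 0.04 on Express arrays for BR200 minus BR100.

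**Figure D3:**
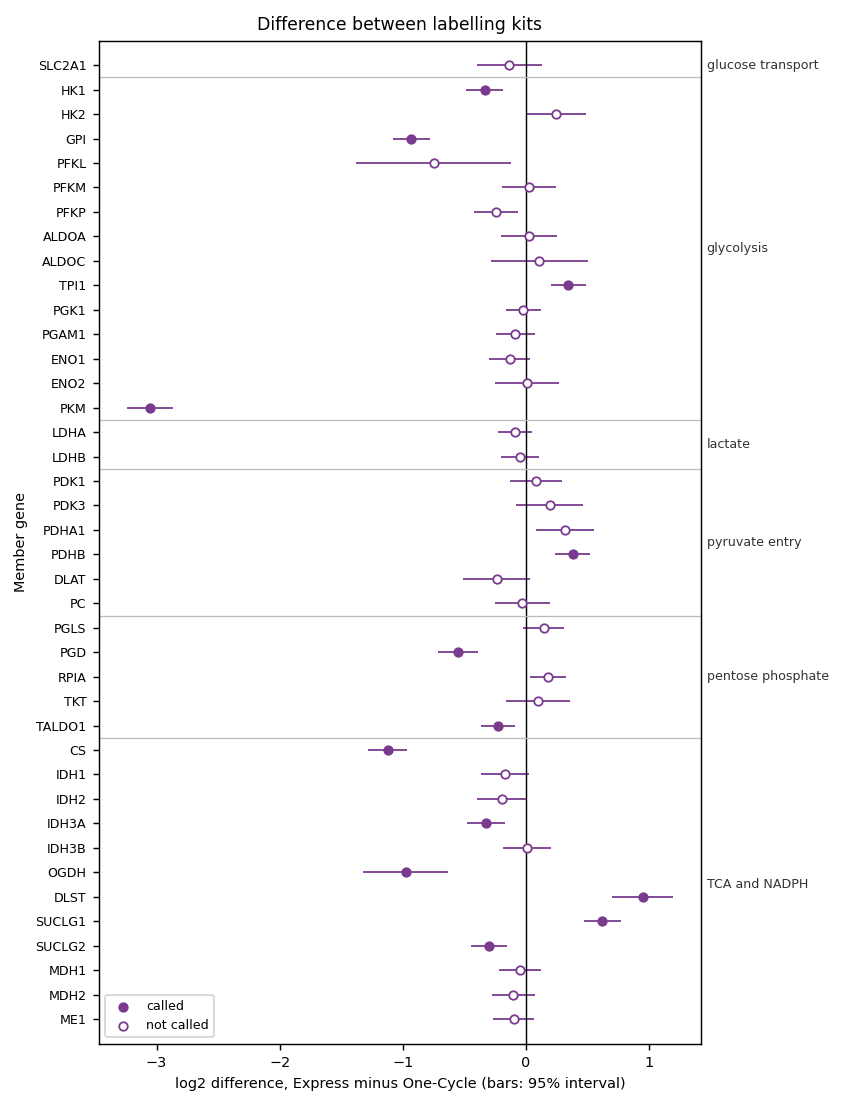
Log2 difference between labelling kits, Express minus One-Cycle, for the 40 tested members with variants as a block. Filled points are called and bars are 95% intervals. PKM is the far point at −3.06, and most other members lie within 1 of 0.

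Several members had more than 1 probe set, and these did not always move together. For the 36 members called in BR100, 36 other probe sets could be tested, of which 29 had the same call, 4 did not pass and 3 were called the other way (PGK1, PKM and MDH2). For the 31 called in BR200, 21 of 30 had the same call, 7 did not pass and 2 were called the other way (IDH3A and MDH2). HK2 showed the widest spread: the bright probe set was at 0.20 in BR100, and dimmer ones, at means of 4.88 and 5.82, were called at 1.91 and 2.32. For ENO1 the other probe sets gave 1.54 and 1.89 where the brightest gave 0.81. For IDH2 the probe sets gave 1.78 and 1.62, and for PDK3 1.89 and 1.88.

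**Figure D4:**
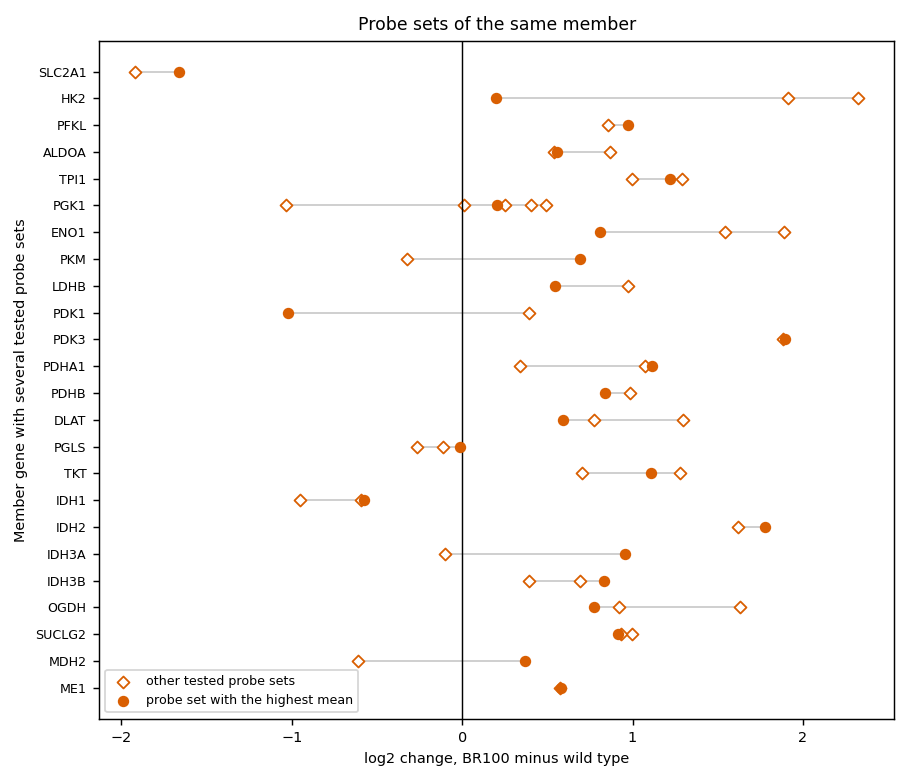
Log2 change in BR100 against wild type for every tested probe set of the members that had more than 1. Filled circles are the probe set with the highest mean, which represents the gene, and open diamonds are the others. HK2, PGK1, PKM, PDK1, IDH3A and MDH2 spread widely or cross 0.

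Position on the chromosome was not part of how members were chosen. For each, the median change was taken of the 10 nearest tested genes on either side on its chromosome, 20 in all except for PFKP, which had 16. In BR100 these medians lay between −0.37 (PFKP) and 0.79, and 36 of 40 were within 0.5 of 0. DLST had the highest, at 0.79 in BR100 and 0.72 in BR200 beside its own 1.64 and 1.25. PDK1 was at −1.02 in BR100 while its neighbours were at 0.67, and MDH1 rose by 1.50 while its neighbours were at −0.34. ME1 was at 0.58 with neighbours at 0.68.

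**Figure D5:**
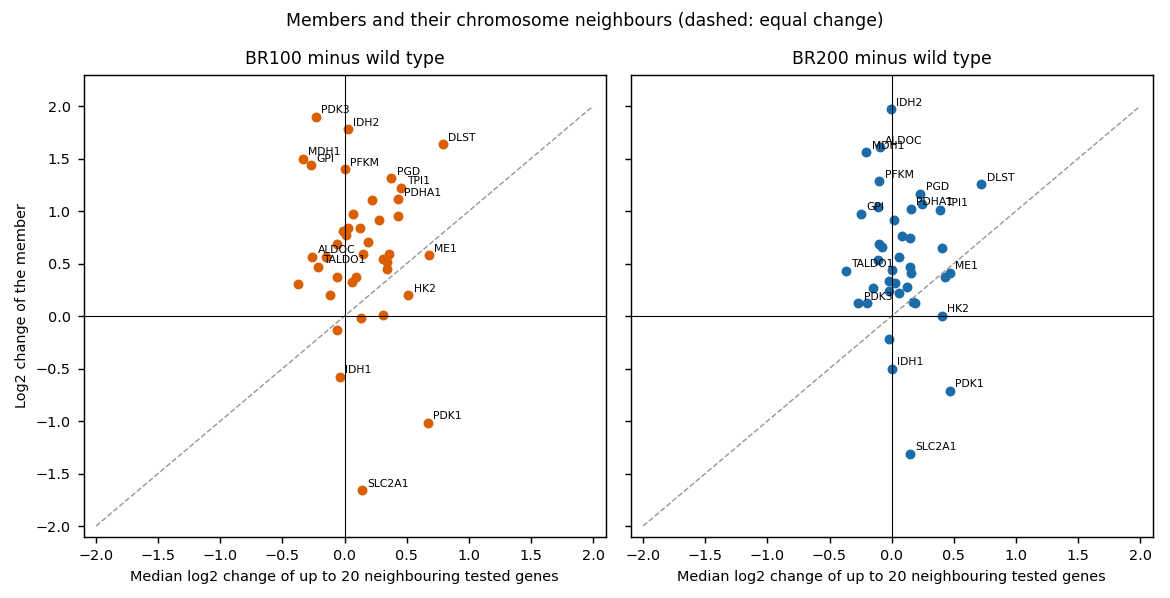
Log2 change of each member (vertical) against the median change of its 20 neighbouring tested genes on the chromosome, 16 for PFKP (horizontal), for BR100 and BR200 against wild type. The dashed line marks equal change. DLST has the most raised surroundings and PDK1 lies below 0 among raised neighbours.

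Of other genes of the same pathways, from a list of 59, 41 were tested. In BR100, 25 were called higher and 9 lower, and in BR200, 20 higher and 9 lower. Their medians were 0.58 and 0.31. The shares over all genes were 36.7% higher and 31.8% lower in BR100, and 35.4% and 31.2% in BR200. GAPDH, the glycolytic dehydrogenase between TPI1 and PGK1, rose by 0.60 and 0.50. GAPDH was at 14.72 and 14.96 in wild type, 15.36 and 15.51 in BR100, and 15.29 and 15.39 in BR200, without overlap. HKDC1, a further hexokinase, was at 9.51 and 9.13 in wild type, 4.96 and 4.25 in BR100, and 5.68 and 4.59 in BR200, with log2 changes of −4.72 (SE 0.182, adjusted p = 0.000162) and −4.19 (SE 0.182, adjusted p = 0.000223). PCK2, the mitochondrial phosphoenolpyruvate carboxykinase, was at 11.66 and 11.49 in wild type, 8.58 and 8.33 in BR100, and 8.47 and 8.33 in BR200, with changes of −3.12 and −3.18. PDK4, another kinase of pyruvate dehydrogenase, was at 7.28 and 7.03, then 4.89 and 4.73, then 5.82 and 4.84, with changes of −2.35 and −1.83, and PDK2 of the same family was called higher in BR100 (0.37) and stood at 0.33 in BR200 (adjusted p = 0.0551). SLC25A1, the mitochondrial citrate carrier, was at 7.67 and 7.97, then 9.40 and 10.14, then 9.16 and 9.58, and rose by 1.95 and 1.55. For HKDC1, PCK2, PDK4 and SLC25A1 both resistant variants lay wholly on the same side of wild type.

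All 7 regulators on the list were called in BR100 (4 higher, 3 lower) and 6 in BR200 (3 higher, 3 lower). Calls in either direction were made for 68.5% and 66.5% of all genes, and the regulators, like all genes, went both ways. TXNIP, an inhibitor of glucose uptake through GLUT1, was at 13.24 and 13.41 in wild type, 9.47 and 9.77 in BR100, and 11.08 and 11.32 in BR200. The groups did not overlap, and BR200 lay between the others. Its log2 changes were −3.71 (SE 0.0703, adjusted p = 6.99e-05) and −2.13 (SE 0.0703, adjusted p = 0.000155), and BR200 was 1.58 above BR100 (adjusted p = 0.00461). HIF1A, the oxygen-regulated subunit of the hypoxia factor, rose by 0.81 and 0.85. MYC, which drives many glycolytic genes, rose by 0.62 in BR100 and was at 0.20 in BR200 (adjusted p = 0.111). From BR100 to BR200, PFKFB2, a kinase that sets the activator of phosphofructokinase, was higher in BR200 by 0.84 (adjusted p = 0.0304). Its levels were 8.16 and 8.09 in wild type, 6.47 and 6.63 in BR100, and 7.52 and 7.26 in BR200. The phosphatase TIGAR and the cytosolic aconitase ACO1 stood at −0.43 and −0.45 (adjusted p = 0.0443 and 0.0322). Of the 48 other genes tested 44 did not pass, so 8.33% were called, beside 10.6% of all genes. The 4 calls, of TXNIP, PFKFB2, TIGAR and ACO1, were all lost with no filter on low values. Nor did they outlast leaving out a BR100 or BR200 array.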

How the data were processed

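The authors deposited log2 values for 54675 probe sets, summarised with GCRMA per the submitters' processing notes (version not given in the sources used here). GCRMA corrects background, normalizes arrays and summarizes probes, so values near its floor of 2.23 carry no order. Array annotation named 1 gene for 41097 probe sets. Each of 19775 genes was represented by its brightest probe set, and genes with at least 2 of 6 arrays at log2 4 were kept (10370).

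A linear model with variant and labelling kit was fitted with limma 3.58.1 in R 4.3.3 over all kept genes (two-sided, Benjamini-Hochberg, threshold 0.05), with 2 residual and 2.33 prior degrees of freedom. The kit pairs arrays across variants by their labels, and deviations from variant means correlated at 0.762 to 0.845 over genes. Fold changes carry limma's SE. Promoter windows came from RefSeq (GRCh38.p14) and were searched in Python 3.11.15.

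Members and lists were chosen with earlier results of these data known. All 44 members were accounted for. Array values were given for the members with the largest changes per comparison (up to 6) or a direction that differed between variants, plus PDK1, IDH1, PGD and PKM, which were chosen after their values were seen, and for up to 4 called related genes with the largest changes, with GAPDH always named. Further related genes and regulators named were chosen after their values were seen. No set test was run. Alternatives covered the block, filter, probe set choice, scaling, floor, single kits and leaving out each array. The number of arrays and the signal over background limit the precision.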

Additional observations from a re-analysis of the deposited data

Results flagged for a closer look

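The change from wild type differed between BR200 and BR100 for 3 members by limma's test of the difference itself. PDK3 differed by −1.77 on the log2 scale, GPI by −0.46 and ALDOC by 1.04, as BR200 minus BR100. Within the kits the values were −1.55 and −1.99 for PDK3, −0.42 and −0.50 for GPI, and 0.83 and 1.25 for ALDOC on Express and One-Cycle arrays. The calls came from these same values, so their shared sign is no separate support. None of the 3 calls was kept with no filter on low values or, as given above, when any array was left out.

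For 4 members the change from wild type had opposite signs on the Express and One-Cycle arrays, with 1 array per variant and kit, and the difference between kits was not tested. In BR100, ENO2 was at 0.16 on Express and −0.15 on One-Cycle, and PGLS at 0.054 and −0.084. In BR200, HK2 was at 0.012 and −0.0049, and DLAT at −0.0034 and 0.44. In each case limma did not call the member in that comparison.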

How the results depend on the processing

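Against wild type, the members called stayed within 1.5 times of the 36 in BR100 and 31 in BR200 under most alternatives, and 18 and 11 members were called in every alternative with a test, among them SLC2A1, IDH2, MDH1, PFKM and PGD in both. The exceptions were the fit with no replicate block, in which the kit pairing was ignored (21 and 18 members, and 4387 and 4100 of all genes), and, in BR200, leaving out probe sets that can match several transcripts (19 of 27 tested). Leaving out each array gave 26 to 34 and 22 to 28. Whichever array was left out, 26 and 22 members kept their call. Those that lost it at least once were ALDOA, ALDOC, DLAT, LDHA, MDH2, OGDH, PFKL, PFKP, PGAM1 and PGK1 in BR100, and ALDOA, ENO2, IDH1, MDH2, ME1, PFKP, PGAM1, PGK1 and SUCLG1 in BR200.

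Between BR200 and BR100, 1 member was called without the block, 5 with the stricter filter and 0 with no filter (12 at an unadjusted p under 0.05, limma), and leaving out each array gave 0 to 0 by limma (4 to 14 unadjusted). Of all genes, 1102 were called, against 112 without the block, 15 with no filter and 0 to 61 with an array left out (1953 to 2135 at an unadjusted p under 0.05 where the limma count was 0). Between kits, the variant term left out gave 1 member and 59 genes, no filter 7 and 468, and an array left out 3 to 9 and 430 to 1797. The cause was not tested.

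The sign turned with the choice of probe set. MDH2 was at −0.12 in BR100 and −0.29 in BR200 with the mean of its probe sets, and at −0.61 and −0.87 without those that can match several transcripts. The latter choice also turned the succinate dehydrogenase subunit SDHC (1.47 and 1.50 with its brightest probe set, −0.37 and −0.10 then), MPC2 in BR200 (−0.28) and the kit difference of IDH2 (0.46). The mean turned EGLN1 in BR200 (0.086) and the kit difference of HKDC1 (−0.063).

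With 2 arrays per variant and 2 residual degrees of freedom, the number of arrays limits the precision, and members near the floor, such as SLC2A3, have no order.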
